A study of Mus musculus with 6 samples.

Results

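Reads of 9 chemoattractant receptor genes, Ccr1, Ccr2, Ccr3, Ccrl2, Cxcr4, Cx3cr1, Fpr1, Fpr2 and Ptafr, were described across the 6 RNA-seq libraries of the series. They were chosen by gene symbol from the 24062 genes of the deposited count tables, and all 9 were found in every table. The cells were RAW264.7, an established line of mouse macrophages, although the tissue field of the labels reads bone marrow. Each condition gave 1 library, for which the RNA of 5 wells was combined. M0 cells were left unpolarized. A 24 h exposure to LPS at 100 ng/mL plus IFN-γ at 20 ng/mL gave M1 cells, and the same time with IL-4 at 20 ng/mL gave M2 cells. These doses are those of the paper's methods, while a figure legend of the paper gives 10 ng/mL for IFN-γ and for IL-4. The prefix R marks cells of each state (RM0, RM1, RM2) that then received 10 Gy of gamma radiation from a caesium source and were kept for a further 24 h. Whether the non-irradiated cells were also kept for the further 24 h is not stated, so irradiation and time in culture cannot be told apart. Pooling removes the spread between wells, so no difference between a pair of libraries had a replicate check.

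Chemoattractant receptors are seven-pass membrane proteins that couple mainly to Gi-type G proteins and steer leukocytes along gradients of chemokines, bacterial peptides or lipid mediators. On macrophages and monocytes they govern exit from bone marrow, entry into inflamed tissue and movement towards microbes. Inflammatory stimuli are known to switch their expression as monocytes mature. Among the chemokine receptors, Ccr1 binds CCL3 and CCL5, Ccr2 binds CCL2 and brings monocytes out of the marrow, Ccr3 is the eotaxin receptor known from eosinophils, Cxcr4 is the CXCL12 receptor that retains cells in the marrow, and Cx3cr1 binds fractalkine and marks patrolling monocytes and microglia. Ccrl2 is an atypical receptor that presents chemerin without classical signalling. Fpr1 and Fpr2 recognise formylated bacterial peptides, and Ptafr recognises platelet-activating factor, a phospholipid.

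In the coordinates of the deposited tables, which are those of mm10 (GRCm38), 5 of the 9 genes lay on chromosome 9. Ccr1 (NM_009912, chr9:123962126-123968692, minus strand), Ccr3 (NM_009914, chr9:124021971-124031689, plus strand) and Ccr2 (NM_009915, chr9:124102183-124109140, plus strand) followed one another among the 9 genes, with gaps of 53.3 kb and 70.5 kb between them. Ccrl2 (NM_017466, chr9:111054835-111057270) and Cx3cr1 (NM_009987, chr9:120048683-120068296), both on the minus strand, lay on the same chromosome at lower coordinates. Fpr1 (NM_013521, chr17:17876471-17883939, minus strand) and Fpr2 (NM_008039, chr17:17887824-17893952, plus strand) faced away from each other across a gap of 3.88 kb. Cxcr4 (NM_009911, chr1:128588199-128592299) was on the minus strand and Ptafr (NM_001081211, chr4:132564067-132580866) on the plus strand. All 9 are protein-coding in GENCODE M21, and in the transcript matched to each listed accession the coding sequence sat in 1 exon for 8 of them and in 2 exons for Cxcr4. The listed start and end covered 11.7% of the annotated gene for Cx3cr1, 59.9% for Ccr2 and 80.3% for Ccrl2, and it is not known if HTSeq also took reads from the rest of these genes. Of the windows of 100 bases in the Fpr2 transcript, 15.4% also occur in the pseudogene Gm5966, and Fpr2 overlaps the annotated span of Fpr3, so its counts are uncertain. Of the Ccr2 windows, 1.83% were not unique to it.

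The paired formyl peptide receptor genes differed in direction in the M1 library, as described below, so the 250 bases before each listed start are shown, from RefSeq promoters of GRCm38.p6. They were searched on both strands for 7 motifs, namely a full NF-κB motif, a short NF-κB motif (GGGANNTCC), the interferon-stimulated response element, the IFN-γ-activated or GAS motif (TTCNNNGAA), the STAT6 motif, which has the GAS ends 1 base farther apart, PU.1 (GAGGAAGT) and AP-1 (TGANTCA). Capitals mark the only match in the pair, a GAS motif at positions -77 to -69 from the Fpr2 start.
Fpr2, chr17:17887574-17887823, plus strand: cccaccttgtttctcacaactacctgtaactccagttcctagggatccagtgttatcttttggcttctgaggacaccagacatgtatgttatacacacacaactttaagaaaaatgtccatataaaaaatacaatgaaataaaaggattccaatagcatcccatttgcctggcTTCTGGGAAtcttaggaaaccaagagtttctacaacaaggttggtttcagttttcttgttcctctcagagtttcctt
Fpr1, chr17:17883940-17884189, minus strand: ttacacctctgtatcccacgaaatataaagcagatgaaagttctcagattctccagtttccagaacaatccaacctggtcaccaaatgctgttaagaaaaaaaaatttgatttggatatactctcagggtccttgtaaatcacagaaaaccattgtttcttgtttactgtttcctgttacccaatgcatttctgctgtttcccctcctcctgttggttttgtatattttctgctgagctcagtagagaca
The GAS letters occurred in 7.02% of 32851 promoter windows of this length and in 1 of the 9 receptor windows. The only other matches among the 9 windows were in Ccr3, with the full NF-κB motif (0.356% of all windows) and the AP-1 motif (6.75%). The windows of Ccr2, Ccrl2 and Cx3cr1 lay mostly or wholly inside the wider gene annotated in GENCODE M21, so they do not describe the bases before its start. These are matches of letters and no binding was measured.

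The libraries held 17894937 to 18870516 counted reads. Their TMM factors, computed with edgeR, were 0.8004 for M1, 0.8836 for RM1 and 1.05 to 1.134 for the other 4. Levels are given as CPM, the count relative to the TMM-scaled library size. Changes between libraries are log2 fold changes with a prior count of 2, which draws values at low counts towards 0. The 95% intervals beside them are exact Clopper-Pearson intervals of the ratio of the reads without that prior count. They cover counting error only. The call was a difference of 2-fold or more in the value with the prior count, made where either library of the pair reached 10 counts. All 9 macrophage markers were detected, although Mertk did not exceed 8 counts. Nos2, the inducible nitric oxide synthase, had 14393 counts in M0 and 169925 in M1. Arg1, which IL-4 induces, had 0 counts in M0 and 31 in M2, while the IL-4 response genes Retnla and Chil3 were at 0 in all 6 libraries. Mrc1, the mannose receptor used as an M2 marker, went against that label, with 50 counts in M1 against 10 in M0 and 6 in M2. Cish, which cytokines induce through STAT factors, had 218 counts in M1 and 195 in M2 against 97 in M0. Of 7 neutrophil markers found in the tables, 3 exceeded 3 counts in any library and Ltf and Ngp were at 0. The summed level of this list was 2200 CPM in M1 and 3070 in RM1 against 141 to 340 in the other 4, nearly all of it from S100a8. Of 6 fibroblast markers, 4 exceeded 3 counts, Col1a2 and Col3a1 were at 0, and the summed level was 43.6 CPM in M1 and 45.8 in RM1 against 6.45 to 10.0 in the others. Of 6 T cell and 5 B cell markers, 1 each exceeded 3 counts, with Cd3e, Cd3g, Cd8a, Ms4a1 and Pax5 among those at 0. Their summed levels were 10.7 to 14.4 and 0.0676 to 0.252 CPM. The part of these genes in the M1 results was not tested.

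Ccr1 dominated the group. It held 63.4% of all reads of the 9 receptors over the 6 libraries, Ccrl2 held 15.7% and Cx3cr1 12.7%. Per kilobase of transcript, the Ccr1 level was the highest in each library, 14.5 CPM per kilobase in M1 and 26.2 to 33.9 in the other 5. In M0 the order per kilobase was Ccr1 at 28.4, Cx3cr1 at 7.07, Ccrl2 at 4.78, Ccr2 at 1.43 and Ptafr at 0.860, with counting intervals of neighbours that did not overlap down to Ptafr. In M1 the counting intervals of Ccr1 and Ccrl2 (13.2) overlapped, and those of Fpr2 (1.79), Cx3cr1 (1.30) and Ptafr (1.15) overlapped from each to the next. Fpr1, Ccr3 and Cxcr4 were near the limit of detection in all 6 libraries, with 0 to 14, 1 to 13 and 0 to 12 counts. Summed over the 9 genes, the level was 86.5 CPM in M1, 111 in M2 and 127 in M0, and was 131 in RM2, 152 in RM0 and 155 in RM1.

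**Figure D1:**
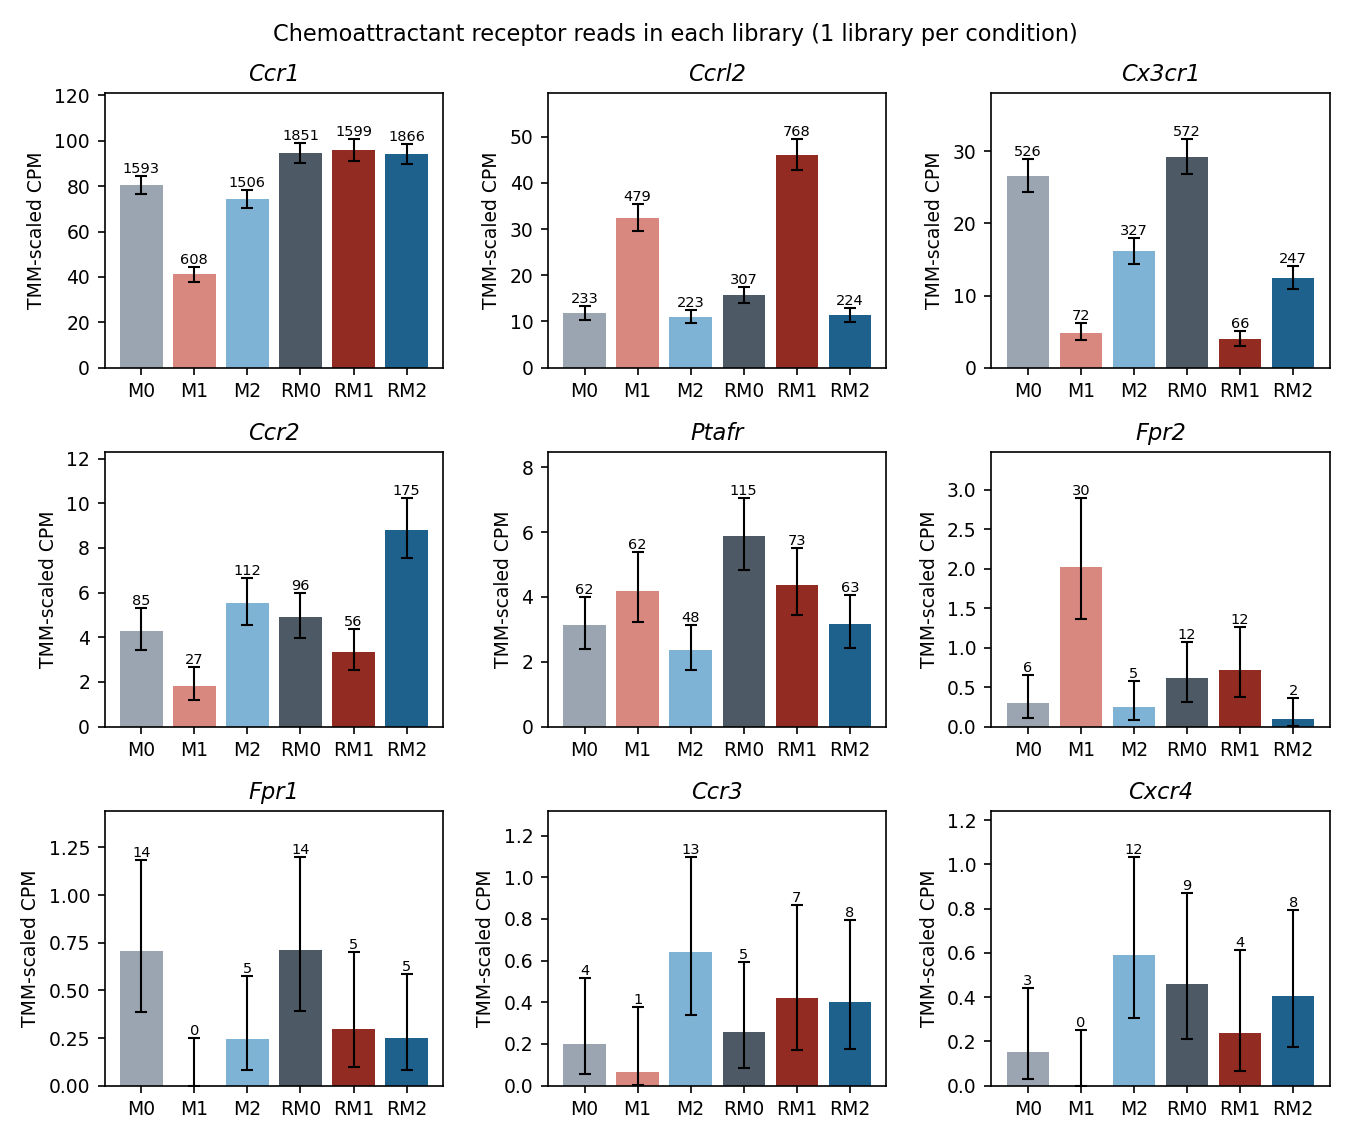
TMM-scaled CPM of each receptor gene (vertical axis, starting at 0 and scaled separately for each gene) in the 6 libraries, 1 bar per library, with exact 95% Poisson intervals of the count and the raw count above each bar. Ccr1 is lowest in M1, at 608 counts, Ccrl2 is highest in M1 and RM1, and Cx3cr1 is lowest in M1 and RM1.

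Polarization with LPS and IFN-γ was compared with the unpolarized state, once without and once with irradiation, in 2 comparisons that share no library. Without irradiation, 7 of the 9 receptors could be called, and Ccrl2 and Fpr2 were called higher and Ccr2, Cx3cr1 and Fpr1 lower in M1 than in M0. These 5 calls stand beside 22.7% of 11778 genes called in either direction, 9.37% higher and 13.3% lower. Among them, Fpr1 and Fpr2 reached 10 counts only in the library where they were higher. With irradiation, Ccrl2 was called higher and Cx3cr1 and Fpr1 lower in RM1 than in RM0, 3 of 7, beside 14.0% of 11713 genes, 6.16% higher and 7.87% lower. Here Fpr1 reached 10 counts only in RM0. The conditions were also used as replicates in 1 additive fit of polarization and irradiation over the 6 libraries with edgeR's quasi-likelihood test, which left 2 residual degrees of freedom and assumes the same polarization effect with and without irradiation. Of the 9 receptors, 6 reached 10 counts in 3 or more libraries and entered this fit, and 4 of them passed an adjusted p of 0.05 for the M1 effect, 2 higher and 2 lower. In the same fit 47.6% of 11574 genes passed, 23.3% higher and 24.3% lower.

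Cx3cr1, the fractalkine receptor, had 526 counts in M0 and 72 in M1, and 572 in RM0 and 66 in RM1. In such bulk libraries, fewer cells with a transcript and less of it in each cell cannot be told apart. Both M1-polarized libraries were thus below the other 4, which held 247 to 572. The log2 fold change was -2.42 (-2.82 to -2.09) between M1 and M0 and -2.85 (-3.27 to -2.51) between RM1 and RM0. In the additive fit the M1 effect was -2.67 ± 0.19 (SE) with an adjusted p of 3e-06 by edgeR's quasi-likelihood test.

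Ccrl2, the chemerin-presenting receptor, went the other way, with 233 counts in M0 and 479 in M1, and 307 in RM0 and 768 in RM1. Both M1-polarized libraries were above the other 4, which held 223 to 307 counts. The log2 fold change was 1.46 (1.23 to 1.70) without and 1.55 (1.36 to 1.75) with irradiation. Scaling by library totals gave 1.02 and 1.30 for these comparisons, both below the counting intervals and still past the 2-fold call. The M1 effect of the additive fit was 1.51 ± 0.15 (SE), with an adjusted p of 3.26e-05 by edgeR's quasi-likelihood test.

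Ccr2, the monocyte receptor for CCL2, had 85 counts in M0 and 27 in M1, which gave a log2 fold change of -1.18 (-1.91 to -0.591). In the irradiated pair it had 96 and 56 counts, a log2 fold change of -0.53 (-1.05 to -0.0545) that was not called. The M1 effect of the fit was -0.85 ± 0.26 (SE) with an adjusted p of 0.0203 by edgeR's quasi-likelihood test. With DESeq2 the adjusted p was 0.0589 and the call was lost.

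Ccr1, also on chromosome 9, had 1593 counts in M0 and 608 in M1, while RM0 and RM1 had 1851 and 1599. At 41.1 CPM the M1 library stood below the other 5, which lay between 74.3 and 95.9 CPM. The log2 fold change was -0.96 (-1.10 to -0.830) in M1 against M0, just short of the 2-fold call, and 0.02 (-0.0757 to 0.119) in RM1 against RM0. Scaling by library totals gave -1.40, past the 2-fold call, and -0.23 for these comparisons. The M1 effect of the fit was -0.44 ± 0.20 (SE) with an adjusted p of 0.0943 by edgeR's quasi-likelihood test. The adjusted p was 0.035 with library totals and 0.0321 without M2 and RM2, both past the threshold. The latter fit left 1 residual degree of freedom.

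The formyl peptide receptors, which detect bacterial peptides, were sparse. Fpr2 had 30 counts in M1 and 2 to 12 in the other 5 libraries, 6 of them in M0. Its log2 fold change was 2.38 (1.46 to 4.30) in M1 against M0 and 0.20 (-1.05 to 1.52) in RM1 against RM0, where both libraries had 12 counts. The M1 effect of 1.49 ± 0.57 (SE) had an adjusted p of 0.0486 by edgeR's quasi-likelihood test, which was 0.22 with DESeq2, 0.131 with library totals and 0.0746 without a count filter, so the call did not hold under these 3 alternatives. Fpr1 had 14 counts in M0 and 0 in M1, at least 3.48-fold lower against 3 counts in M1, and 14 in RM0 and 5 in RM1. The latter difference had an interval from -3.08 to 0.302 on the log2 scale and was within counting error.

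Ptafr, the receptor for platelet-activating factor, had 62 counts in both M0 and M1, which after scaling was 3.13 CPM and 4.19 CPM with overlapping counting intervals. In RM0 and RM1 it had 115 and 73 counts. The M1 effect of the fit was -0.03 ± 0.27 (SE), with an adjusted p of 0.933 by edgeR's quasi-likelihood test. Ccr3 had 4 counts in M0 and 1 in M1, and Cxcr4 had 3 and 0, so neither could be called in this comparison. In the 2 irradiated libraries Ccr3 had 5 and 7 counts and Cxcr4 had 9 and 4.

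**Figure D2:**
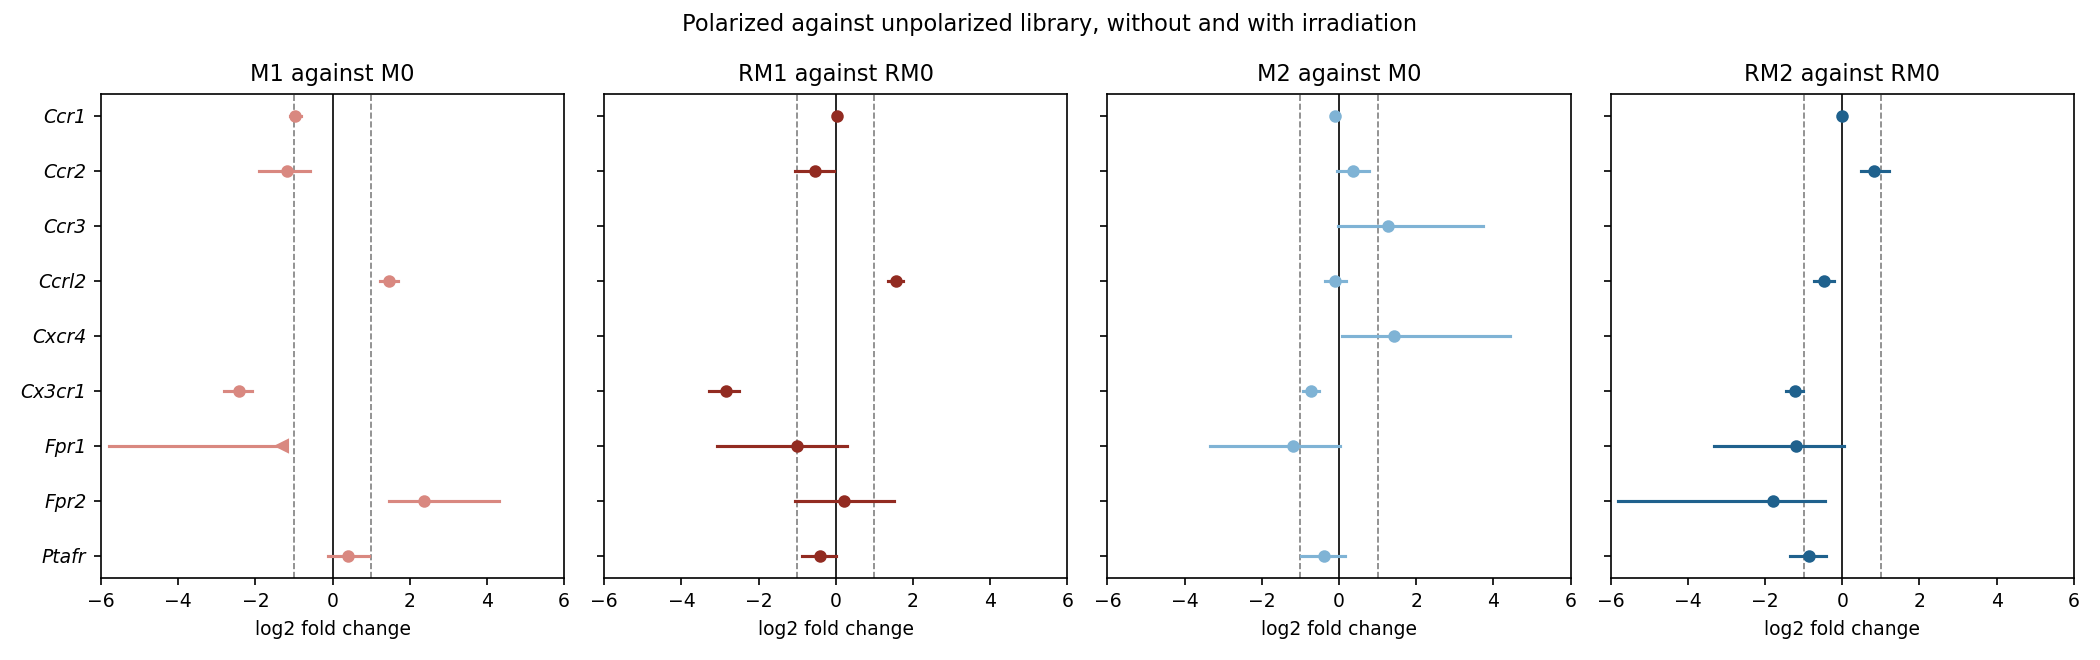
Log2 fold changes (horizontal axis, prior count 2) of the receptors in M1 against M0, RM1 against RM0, M2 against M0 and RM2 against RM0, for genes reaching 10 counts in either library of the pair. Points are values and lines are exact 95% counting intervals of the ratio without the prior count. A triangle at the end of an interval marks a gene with 0 counts in the first library, and dashed lines mark 2-fold. Ccrl2 lies right and Cx3cr1 left of the 2-fold lines in both M1 comparisons, while the intervals of Ccr1 and Fpr2 exclude 0 in M1 against M0 and include it in RM1 against RM0.

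Each state was compared with and without irradiation, in 3 comparisons that share no library. In RM0 against M0, 0 of 7 receptors were called, beside 1.54% of 11688 genes, 0.719% higher and 0.821% lower. In RM2 against M2, 0 of 7 receptors were called, beside 1.97% of 11801 genes, 1.03% higher and 0.932% lower. In RM1 against M1, Ccr1 was called higher and Fpr2 lower, 2 of 6, beside 5.34% of 11443 genes, 3.08% higher and 2.25% lower. This comparison shares the M1 library with that of M1 against M0, and in both genes that library lay outside the range of the other 5. In the additive fit, 0 of the 6 receptors passed for an irradiation effect shared by the 3 states with edgeR's quasi-likelihood test, and 0 with DESeq2, while 3 had an unadjusted p under 0.05 with edgeR. Of all genes, 0.475% passed the adjusted threshold with edgeR, 0.346% higher and 0.130% lower. The shares of all genes at an unadjusted p or with DESeq2 were not computed, so those counts have no like comparison.

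For Ccr1, the non-irradiated and irradiated libraries held 1593 and 1851 counts in the unpolarized state, 608 and 1599 after LPS with IFN-γ, and 1506 and 1866 after IL-4. The irradiated library was the higher in each state, and the 3 irradiated libraries lay between 94.1 and 95.9 CPM. The log2 fold changes were 0.23 (0.137 to 0.332) in RM0, 1.22 (1.09 to 1.36) in RM1 and 0.34 (0.242 to 0.440) in RM2. The change in RM1 exceeded that in RM0 by 0.99 on the log2 scale, with a counting interval of 0.822 to 1.15 by normal approximation, and had no replicate test. The shared effect of 0.59 ± 0.16 (SE) had an adjusted p of 0.16 by edgeR's quasi-likelihood test. It passed at 0.0442 without M0 and RM0 and at 0.023 without M2 and RM2, and was 0.0653 without M1 and RM1, where the effect was 0.29. Each of these fits left 1 residual degree of freedom.

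Ccr2 was also higher in each irradiated library, with 85 and 96 counts in M0 and RM0, 27 and 56 in M1 and RM1, and 112 and 175 in M2 and RM2. The log2 fold changes were 0.19 (-0.243 to 0.632), 0.84 (0.192 to 1.60) and 0.67 (0.325 to 1.03) in that order. The intervals excluded 0 in M1 and M2 and not in M0. The adjusted p of the shared effect, 0.55 ± 0.20 (SE), was 0.248 by edgeR's quasi-likelihood test.

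Ccrl2 had 307 counts in RM0 against 233 in M0, a log2 fold change of 0.41 (0.165 to 0.667), and 768 in RM1 against 479 in M1, 0.51 (0.341 to 0.675). In RM2 and M2 it had 224 and 223 counts, 0.04 (-0.236 to 0.312). The adjusted p of its shared effect was 0.263 by edgeR's quasi-likelihood test.

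Cx3cr1 had 526 and 572 counts in M0 and RM0, 72 and 66 in M1 and RM1, and 327 and 247 in M2 and RM2. The log2 fold change was 0.14 (-0.0348 to 0.312) in M0, -0.29 (-0.803 to 0.203) in M1 and -0.37 (-0.617 to -0.130) in M2. Only the interval in M2 excluded 0, and the changes in M2 and M0 differed by -0.51 (-0.805 to -0.218), counting error alone by normal approximation.

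Ptafr had 62 counts in M0 and 115 in RM0, a log2 fold change of 0.89 (0.451 to 1.38) that was not called. It was 0.06 (-0.446 to 0.575) in RM1 with 73 against 62 counts, and 0.41 (-0.141 to 0.997) in RM2 with 63 against 48. The shared effect of 0.48 ± 0.22 (SE) had an adjusted p of 0.35 by edgeR's quasi-likelihood test. It was 0.0367 without M1 and RM1, where 1 residual degree of freedom was left.

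Fpr2 had no single direction, with 6 and 12 counts in M0 and RM0, 30 and 12 in M1 and RM1, and 5 and 2 in M2 and RM2. The log2 fold change was 0.81 (-0.508 to 2.72) in M0 and -1.37 (-2.60 to -0.487) in M1. Fpr1 had 14 counts in both M0 and RM0, 5 in both M2 and RM2, and 0 in M1 against 5 in RM1. Cxcr4 had 3 counts in M0 and 9 in RM0, a ratio of 3.04 with an interval of 0.758 to 17.4. Ccr3 had 1 count in M1 and 7 in RM1, a ratio of 6.21 with an interval of 0.798 to 279.8. Irradiation differences in Fpr1, Cxcr4 and Ccr3 were not detectable at this depth in any state.

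**Figure D3:**
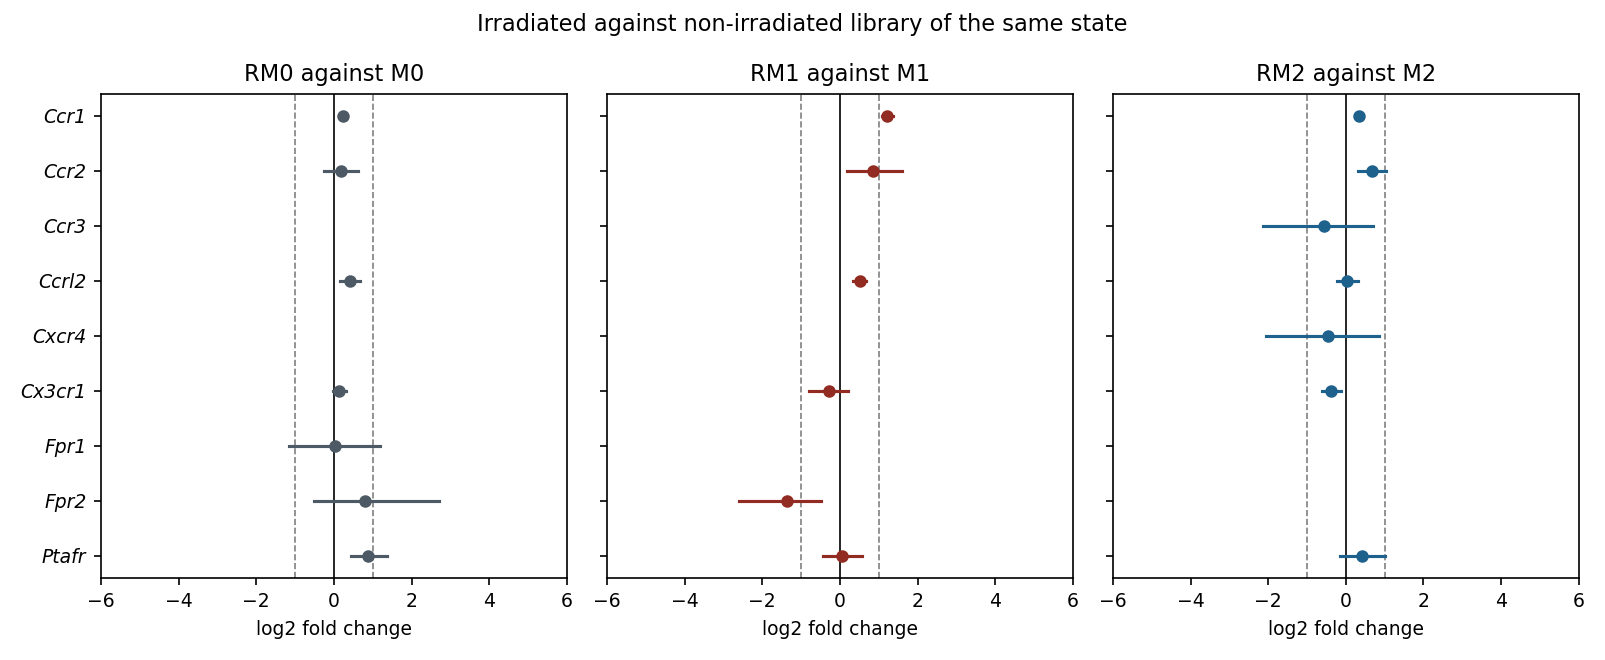
Log2 fold changes (horizontal axis, prior count 2) of the receptors in the irradiated against the non-irradiated library of each state, for genes reaching 10 counts in either library of the pair. Lines are exact 95% counting intervals of the ratio without the prior count, and dashed lines mark 2-fold. Ccr1 in RM1, at 1.22, and Fpr2 in RM1, at -1.37, are the only points beyond 2-fold.

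Polarization with IL-4 left most receptors within 2-fold. In M2 against M0, Ccr3 and Cxcr4 were called higher and Fpr1 lower, 3 of 8 receptors. Of 11762 genes, 1.44% were called, 0.995% higher and 0.442% lower. Each of the 3 receptor calls rested on 14 counts or fewer. These 3 genes met the minimum count only in the library where they were higher, so their share depends on the count filter. With at least 50 counts in 1 library, 0 of 5 receptors were called. In RM2 against RM0, Cx3cr1, Fpr1 and Fpr2 were called lower, 3 of 7, beside 2.61% of 11748 genes, 1.66% higher and 0.953% lower. Here Fpr1 and Fpr2 met the minimum count only in RM0, where they were higher. With at least 50 counts in 1 library, 1 of 5 receptors was called, and it was lower. The shares of all genes called with at least 50 counts were not computed. In the additive fit 0 of 6 receptors passed for the M2 effect with edgeR's quasi-likelihood test, 3 had an unadjusted p under 0.05, and 1, Cx3cr1, passed with DESeq2. Of all genes, 0.19% passed the adjusted threshold with edgeR, 0.156% higher and 0.0346% lower. The shares of all genes at an unadjusted p or with DESeq2 were not computed, so those counts have no like comparison.

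Cx3cr1 had 526 counts in M0 and 327 in M2, a log2 fold change of -0.71 (-0.922 to -0.516), and 572 in RM0 and 247 in RM2, -1.22 (-1.45 to -1.01). In both pairs the IL-4 library was the lower. The M2 effect of the fit was -0.97 ± 0.16 (SE), with an adjusted p of 0.0501 by edgeR's quasi-likelihood test, which is short of the threshold. It was 0.0105 with DESeq2, 0.015 without a count filter and 0.209 with library totals, and 1.63e-12 without M1 and RM1, where 1 residual degree of freedom was left.

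Ccr2 had 85 counts in M0 and 112 in M2, and 96 in RM0 and 175 in RM2, the highest of the 6 libraries. The log2 fold changes were 0.36 (-0.0541 to 0.790) and 0.83 (0.481 to 1.22), and the M2 effect of 0.61 ± 0.23 (SE) had an adjusted p of 0.464 by edgeR's quasi-likelihood test. Without M1 and RM1 the adjusted p by the same test was 0.00966, with 1 residual degree of freedom left. Ptafr went from 62 to 48 counts and, with irradiation, from 115 to 63, with log2 fold changes of -0.39 (-0.976 to 0.165) and -0.86 (-1.35 to -0.431). Its adjusted p was 0.468, and 0.0304 without M1 and RM1, by edgeR's quasi-likelihood test, where the latter fit again left 1 residual degree of freedom. Ccr1 and Ccrl2 differed little, with log2 fold changes of -0.11 (-0.216 to -0.0108) and -0.09 (-0.367 to 0.176) in M2 against M0.

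Cxcr4, the marrow retention receptor, had 12 counts in M2 and 3 in M0, a ratio of 3.91 with an interval of 1.06 to 21.6. In the irradiated libraries it had 8 counts in RM2 and 9 in RM0. Ccr3 had 13 counts in M2 and 4 in M0, a log2 fold change of 1.27 (-0.0265 to 3.74), with 8 in RM2 and 5 in RM0. Neither gene reached 10 counts in the irradiated pair, so no call could be made there. Fpr1 had 14 counts in M0 and 5 in M2, and 14 in RM0 and 5 in RM2, with log2 fold changes of -1.20 (-3.34 to 0.0371) and -1.19 (-3.33 to 0.0515). Both intervals included 0. Fpr2 had 5 counts in M2 against 6 in M0 and 2 in RM2 against 12 in RM0, a ratio with a 95% interval of 0.0179 to 0.739 in the latter.

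Other genes of the pathway were followed in 3 lists, which are 20 ligands and genes that make or break lipid and peptide ligands, 29 further chemoattractant receptors and 27 genes of receptor signalling and desensitization. In M1 against M0, 8 of 14 measured ligand genes were called higher and 0 lower, beside 9.37% of all genes higher and 13.3% lower, with a median log2 fold change of 1.58 where the median of all genes was -0.03. Saa3, an acute phase protein that FPR2 binds, had 136 counts in M0 and 6345 in M1, and Ccl5, a ligand of CCR1 and CCR3, had 718 and 9987. Ccl12, a CCR2 ligand, had 1 and 27, and Ccl6, a CCR1 ligand, had 35 and 165. Cxcl12, the ligand of CXCR4, and Ccl11, an eotaxin, were at 0 in all 6 libraries, while Cx3cl1, the ligand of CX3CR1, had 2 to 9 counts.

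The further receptors had a median log2 fold change of -1.57 in M1 against M0, with 6 of 10 measured genes called lower and 1 higher, beside 13.3% and 9.37% of all genes. Of the 6, Ccr7, Cysltr1 and Gpr183 reached 10 counts only in M0, as did C5ar2, which was not called. These calls and the median thus depend in part on the count filter. The 9 receptors had a median of -0.96 over the 7 that were measured. C5ar1, the receptor for the complement peptide C5a, had 1630 counts in M0 and 116 in M1, Gpr183, which senses oxysterols, had 109 and 9, Cysltr1, a leukotriene receptor, had 64 and 5, and Ccr7, which directs cells to lymph nodes, had 39 and 1. Ltb4r1, the leukotriene B4 receptor, was the only one called higher, with 34 and 100 counts. Of 26 measured signalling genes, 2 were called higher, Rgs16 and Grk5, and 2 lower, Plcb2 and Rgs18, with a median of 0.31, against the same shares of all genes. Rgs18 reached 10 counts only in M0. Rgs16, a brake on G protein signalling, had 1099 and 3133 counts. In the additive fit, the M1 effect passed for 7 of 11 ligand genes, all higher, for 7 of 11 further receptors, 1 higher and 6 lower, and for 16 of 25 signalling genes, 10 higher and 6 lower, where 47.6% of all genes passed, 23.3% higher and 24.3% lower.

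**Figure D4:**
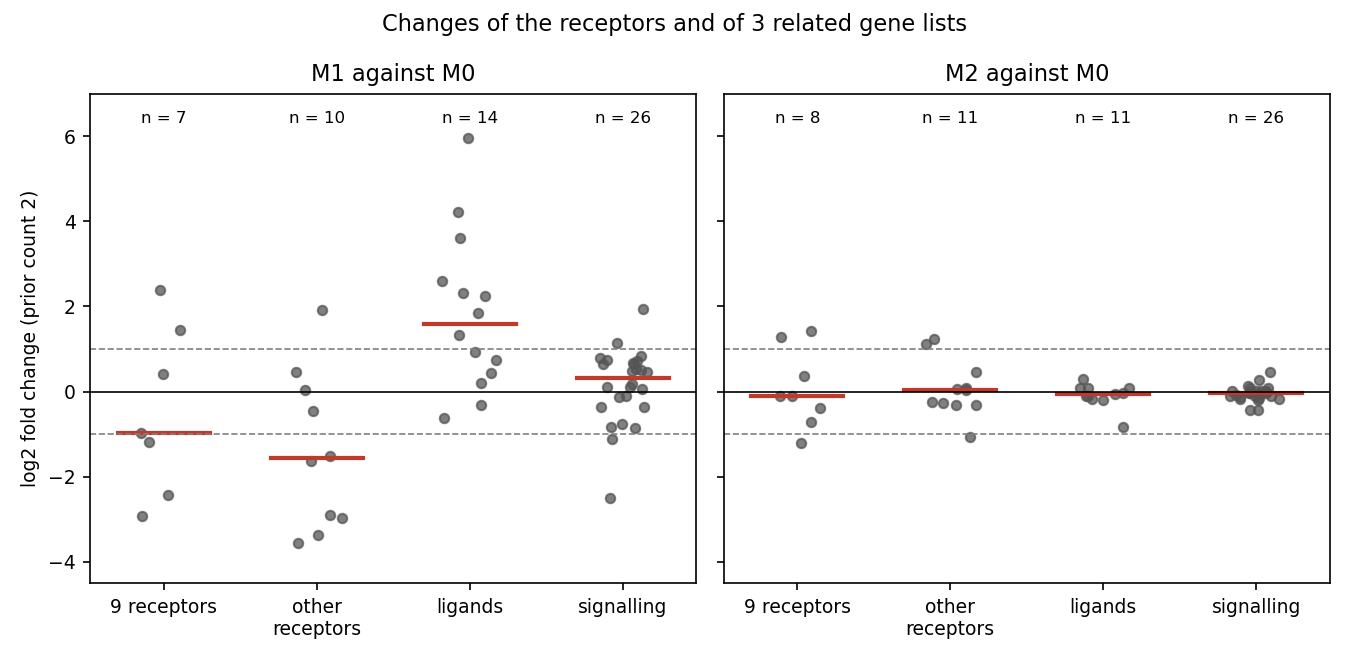
Log2 fold changes (vertical axis, prior count 2) of the 9 receptors and the 3 related lists for the LPS with IFN-γ and the IL-4 comparison without irradiation, with 1 point per gene reaching 10 counts in either library, red lines at the medians and dashed lines at 2-fold. In M1 the median of the ligands is 1.58 and that of the further receptors -1.57, while in M2 the 4 medians lie between -0.10 and 0.03. Some of the genes shown reached 10 counts only in the library where they were higher.

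In M2 against M0 the call was made for 0 of 11 ligand genes, 3 of 11 further receptors and 0 of 26 signalling genes, beside 1.44% of all genes. Among these receptors, Gpr183 was called higher, with 109 counts in M0 and 244 in M2, and Ccr7 lower, with 39 and 18. After irradiation 0 genes of the 3 lists were called in RM0 or RM2, beside 1.54% and 1.97% of all genes. In RM1 against M1, Ccl7 was called higher and Ccl6, Ccl12 and Camp lower among 14 ligand genes. Cysltr1, Gpr183 and Cxcr5 were called higher and 0 lower among 8 further receptors, and 0 of 25 signalling genes were called, beside 5.34% of all genes. Cysltr1 had 5 counts in M1 and 26 in RM1, Gpr183 had 9 and 32, and Cxcr5 had 21 and 57. In the additive fit, an irradiation effect passed for 1 of 11 ligand genes, 0 of 11 further receptors and 0 of 25 signalling genes, beside 0.475% of all genes.

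Genes with the most similar pattern were sought for the 5 receptors with a mean of at least 50 counts, by the root mean square difference of centred log2 CPM over the 6 libraries among 10185 genes. For Ccr1 they included Cttnbp2nl and Gzf1, each with a difference of 0.107, where Ccr1 itself varied by 0.426 around its mean. Cttnbp2nl had 3774 counts in M0, 1631 in M1 and 3531 to 4677 in the other 4. For Ccr2 they were Zfp933, Rasa1 and Ube2v2 (0.102 to 0.130), and for Ccrl2 they were Rdh12, Il18 and Eva1b (0.119 to 0.136). For Cx3cr1, which varied by 1.09 around its mean, they were Dmpk, Tmem238 and Sdr39u1 (0.230 to 0.293). For Ptafr they were Syn1, Ankrd37 and Zfp385a (0.177 to 0.201).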

How the data were processed

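RNA from 5 wells of RAW264.7 cells was pooled for each of 6 libraries. Per the labels, the submitters' processing notes name Trimmomatic 0.36, HISAT2 2.2.1, HTSeq 0.11.3 and mm10, without roles. The deposited files hold raw counts per gene made by the authors, and the strand setting is not given in the sources used here. The paper's methods name edgeR for the authors' own tests.

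From these counts, TMM factors were computed with edgeR 4.0.16 in R 4.3.3 over genes that reached 10 counts in 3 or more libraries. The quasi-likelihood test used an additive design of polarization and irradiation, with Benjamini-Hochberg adjustment over all 11574 genes and a fitted coefficient of variation of 0.107. The SE of an effect was taken from its F statistic. Conditions stand in for replicates, so p-values hold any difference in response between states. Fold calls carry no p-value. Transcript lengths came from GENCODE M21. Simulated counts were used to check only the irradiation effect of the quasi-likelihood fit and the fold call of RM0 against M0. That check left out sparsely counted genes, and the other steps were not tested in this way. Other tools were DESeq2 1.42.0 and Python 3.11.15 with scipy 1.17.1, numpy 2.4.6, pandas 2.3.3 and, for plots, matplotlib 3.10.9. Depth was similar in the libraries, and 3 counts was taken as the floor. A date stood in place of the symbol for 27 genes, none of them a receptor described here.

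The 9 receptors and the lists were chosen with earlier results of these data known. All members are named, genes of the 3 lists are named where called (up to 4 per direction and list), and the 3 most similar genes are given, except for items that are not reported here. Alternatives were DESeq2, library totals, a prior count of 0.25, other count filters, a 4-fold threshold and each state left out.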

Additional observations from a re-analysis of the deposited data

How the results depend on the processing

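With no minimum count, 1 receptor was called in RM0 against M0 and 5 in RM1 against M1. With at least 50 counts in 1 library, the calls numbered 1 in RM1 against M1, 3 in M1 against M0, 0 in M2 against M0 and 1 in RM2 against RM0. At a 4-fold threshold they numbered 0 in RM1 against M1, 3 in M1 against M0, 0 in M2 against M0, 1 in RM1 against RM0 and 0 in RM2 against RM0. These counts follow from the filters themselves, and the shares of all genes called under them were not computed. DESeq2 size factors, library totals and a prior count of 0.25 kept each of the 7 counts within 1.5 times. Library totals moved the median log2 fold change of all genes from -0.03 to -0.46 in M1 against M0, from -0.01 to -0.25 in RM1 against RM0 and from -0.01 to 0.13 in RM1 against M1, and with them 6 single receptor values left their counting interval, all of Ccr1, Ccrl2 or Cx3cr1 in comparisons with M1 or RM1.

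In the additive fit, DESeq2 called 2 receptors for the M1 effect and 1 for the M2 effect. Without a count filter 1 was called for M2. With each state and its irradiated counterpart left out in turn, 1 receptor was called for irradiation each time. It was Ccr1 without M0 and RM0, Ptafr without M1 and RM1, and Ccr1 without M2 and RM2. Each of these fits left 1 residual degree of freedom. Without M1 and RM1, 3 were called for the M2 effect. Among alternative values of single receptors, 66 kept their side of the threshold, 10 passed it, 4 lost it and 1 reversed, the M1 effect of Ptafr, which was 0.0037 with DESeq2. The causes were not tested, and the shares of all genes under these alternatives were not computed. No paired analysis was possible because each condition has 1 library and the labels give no replicate numbers, apart from the additive fit itself, which sets irradiated against non-irradiated libraries within each state.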
